A study of Mus musculus with 8 samples.

Results

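The Mediator complex was followed through its subunit transcripts in back skin that lacked 1 of those subunits in keratinocytes. The members were all probes whose symbol in the platform annotation begins with Med and a digit, together with the probes of Cdk8 and Ccnc. These were 47 of the 25697 probes on the array, for 30 genes. Whole back skin was compared between 4 control and 4 KO mice of the C57BL6 background at 10 weeks of age. Both groups carried floxed alleles of Med1 (MED1 fl/fl); the KO mice carried in addition a Cre recombinase driven by the promoter of keratin 14 (K14), and the control mice, which the labels call WT, were Cre-negative littermates per the study's methods. Each mouse gave its own RNA and its own Illumina bead array.

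Mediator carries signals from transcription factors bound to enhancers and promoters to RNA polymerase II. Its head and middle modules contact the polymerase, its tail module is bound by many activators, and a separable kinase module, built of Cdk8, cyclin C, Med12 and Med13, regulates the contact of the core complex with the polymerase. Med1, a subunit of the middle module, is the main contact of nuclear receptors such as the vitamin D receptor, and in mouse skin it is studied for its part in epidermal differentiation and the hair follicle. K14 is expressed in the basal keratinocytes of the epidermis and the hair follicle. By this design, fibroblasts, vessels, muscle and immune cells of the same skin piece would keep their floxed, unrecombined Med1. Recombination by cell type was not measured here.

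The tissue label was checked against marker genes. The summed background-corrected signal of 5 keratinocyte genes lay between 90800 and 93600 in the control mice and between 90100 and 94400 in the KO mice, and fibroblast, endothelial, muscle and adipocyte genes were detected, with the exception of Fabp4, whose probe was not detected on any array. Other lists differed with genotype in all 8 mice. The summed signal of 5 hair shaft and inner root sheath genes was 89.1 to 1350 in the controls and 122000 to 130000 in the KO animals, that of 5 proliferation genes 1490 to 1770 and 7220 to 7340, and that of 4 melanocyte genes 649 to 762 and 9860 to 10600. All 14 of these genes were higher in KO. Among the controls, mice 1 and 3 stood apart in the hair genes, with sums of 1350 and 1200 against 89.1 and 113 in mice 2 and 4. The member counts are given with and without these 2 mice, and the members that lost their call without them are named. The sums fell from between 118000 and 126000 to between 47600 and 49700 for 5 skeletal muscle genes, from between 72600 and 79000 to between 47100 and 54000 for 5 fibroblast genes, from between 4930 and 5540 to between 2090 and 2290 for 4 endothelial genes and from between 9510 and 9920 to between 4520 and 5080 for 3 macrophage genes, with all 17 genes lower in KO. Of the 4 adipocyte genes 2 were lower (sums of 3910 to 4160 in control and 2950 to 3070 in KO), and of 2 T cell genes 1 was lower. These shifts ran with genotype through every Mediator value that follows, and their part in those values was not tested. In such bulk tissue, fewer cells of a type, less RNA per cell and a smaller share of the RNA as other cells increase cannot be told apart. Arrays correlated at 0.991 to 0.993 within a group and at 0.908 to 0.916 between groups, and 14593 to 15149 probes were detected on each.

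Med1, the targeted subunit, was lower in KO skin at 2 of its 4 probes. The log2 signal of probe ILMN_1220563 was 9.05, 8.99, 8.92 and 9.10 in control mice 1 to 4 and 8.26, 7.80, 8.39 and 8.45 in KO mice 1 to 4. All 4 KO values lay below all 4 control values, and the KO mice were more spread (SD 0.29, n = 4) than the control mice (SD 0.078, n = 4). The change, KO minus control, was −0.79 ± 0.14 (SE) on the log2 scale, or 57.9% of the control level (adjusted p = 6.49e-04, limma). With no background subtracted this change was −0.60. Probe ILMN_3106388 read 6.23, 6.56, 6.20 and 5.88 in the controls and 5.35, 5.19, 5.59 and 5.96 in the KO animals, a change of −0.69 ± 0.18 (adjusted p = 0.00861), with the value of KO mouse 4 above that of control mouse 4. It is a dim probe, and its change was −0.23 when no background was subtracted and −0.70 with an adjusted p of 0.0510 without control mice 1 and 3. Probe ILMN_2658227 gave 5.52, 5.77, 5.32 and 5.24 in the controls and 4.90, 5.50, 5.01 and 5.50 in the KO animals and did not pass (−0.23 ± 0.17, adjusted p = 0.252), being detected on 4 control and 2 KO arrays. The last probe, ILMN_2695175, was not detected on any array (4.48 to 4.73 in control and 4.43 to 4.65 in KO). The 3 tested probes are annotated to different Med1 transcripts, NM_134027, NM_001080118 and NM_013634, in that order. The undetected probe ILMN_2695175 is annotated to NM_134027 as well, the transcript of the bright probe ILMN_1220563. Where the probes lie relative to the deleted exons was not analysed here, so a probe outside them would report transcript level and not the deletion.

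**Figure D1:**
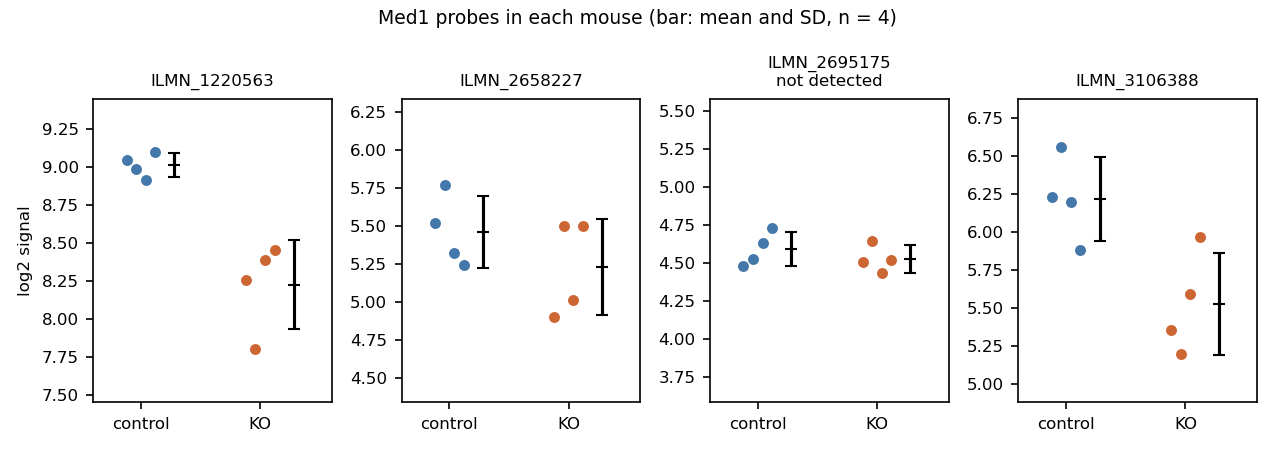
Log2 signal (vertical axis, a separate scale for each probe) of the 4 Med1 probes in each control and KO mouse, with the mean and SD of 4 mice as bars. At ILMN_1220563 the KO mice lie between 7.80 and 8.45 and the control mice between 8.92 and 9.10; at ILMN_3106388 KO mouse 4 (5.96) lies above control mouse 4 (5.88), and ILMN_2695175 was not detected.

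The sequences before the annotated transcript starts are shown for the deleted subunit, for the subunit with the largest change (Med22), for 2 further subunits that were higher (Ccnc and Med19) and for the lower subunit of the kinase module (Med12), since the transcripts of these genes moved in different directions. Each is the 150 bases that end at the base before the start, written 5′ to 3′ on the gene's strand from RefSeq (GRCm38.p6), and lies at chr11:98192907-98193056 on the minus strand for Med1, chr2:26910643-26910792 on the minus strand for Med22, chr4:21727551-21727700 on the plus strand for Ccnc, chr2:84678252-84678401 on the plus strand for Med19 and chrX:101273941-101274090 on the plus strand for Med12. Capitals mark matches on either strand to GGGCGG (bound by Sp and KLF factors), to CCAAT (bound by NF-Y) or to CCGGAA (bound by ETS factors).
Med1: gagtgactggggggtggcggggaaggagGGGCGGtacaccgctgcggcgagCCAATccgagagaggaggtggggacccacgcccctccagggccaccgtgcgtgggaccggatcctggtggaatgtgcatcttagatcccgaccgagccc
Med22: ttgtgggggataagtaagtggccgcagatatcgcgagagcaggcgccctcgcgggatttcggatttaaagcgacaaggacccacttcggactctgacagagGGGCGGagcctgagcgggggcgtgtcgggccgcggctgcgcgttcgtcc
Ccnc: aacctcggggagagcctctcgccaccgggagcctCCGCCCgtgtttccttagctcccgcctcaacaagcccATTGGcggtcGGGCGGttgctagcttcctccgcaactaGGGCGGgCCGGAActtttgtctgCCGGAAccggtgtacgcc
Med19: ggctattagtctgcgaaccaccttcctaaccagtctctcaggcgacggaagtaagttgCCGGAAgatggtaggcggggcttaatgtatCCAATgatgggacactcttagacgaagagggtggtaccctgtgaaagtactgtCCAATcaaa
Med12: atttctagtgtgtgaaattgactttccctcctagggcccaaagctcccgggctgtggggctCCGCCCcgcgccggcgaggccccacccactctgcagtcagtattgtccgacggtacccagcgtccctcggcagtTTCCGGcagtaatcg
None of the 5 holds TATAAA on either strand. In the 250 bases before the start, on both strands and with no motif contained in another, 26 of the 30 Mediator genes could be searched (Med8, Med23, Med24 and Med30 were not). A gene was counted where any of its listed starts held the motif, while the shares given beside it count each of 32851 promoters singly. The 2 measures are therefore not strictly alike. GGGCGG was found in 17 of the 26 genes, against 32.7% of 32851 promoters, CCAAT in 11 against 33.8%, and CCGGAA in 9, against 3952 of the 32851. CCGGAA was present before 6 of 13 genes that were higher in KO (Ccnc, Med4, Med7, Med10, Med19 and Med20) and before 2 of 4 genes that were lower (Med12 and Med15). AGGTCA, the core letters of nuclear receptor elements, was found in 7 genes against 14.0%, TATAAA in 3 against 12.4%, CACGTG in 2 against 6.02%, TTCCCGCC in 2 against 1.86% and TGACGTCA in 1 against 1.55%. These matches are descriptions of letters, and no binding was measured.

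More Mediator transcripts were higher than lower in KO skin. Testing was limited to probes detected (detection p under 0.05) on 4 arrays or more, and 37 member probes of 26 genes were in reach of it. Of these, 19 (51.4%) were higher in KO, where 30.7% of all 15120 tested probes were, and 6 (16.2%) were lower, where 32.0% of all tested probes were, with an adjusted p below 0.05; 12 were not called. The 19 probes stand for 16 genes (Ccnc, Med4, Med7, Med8, Med10, Med11, Med18, Med19, Med20, Med22, Med24, Med25, Med26, Med27, Med30 and Med31), and the 6 lower probes for 5 genes (Med1, Med12, Med15, Med23 and Med28). No gene had probes called in both directions. The changes were small for most members: their median was 0.26 on the log2 scale beside −0.01 over all tested probes, and they ran from −0.79 to 1.13. Of the 37 member probes 1 was called with a change of at least 2-fold, beside 2523 of all 15120 tested probes. Without the Med1 probes, 19 of 34 (55.9%) were higher and 4 (11.8%) lower, with a median of 0.29. In 24 of the 37 the values of the 4 KO and the 4 control mice did not overlap, 19 with KO above and 5 with KO below, where 58.0% of all tested probes had separate groups. Without control mice 1 and 3, 14 member probes were higher and 2 lower, while the calls over all 15120 probes also fell, from 4636 to 4031 higher and from 4837 to 4292 lower.

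**Figure D2:**
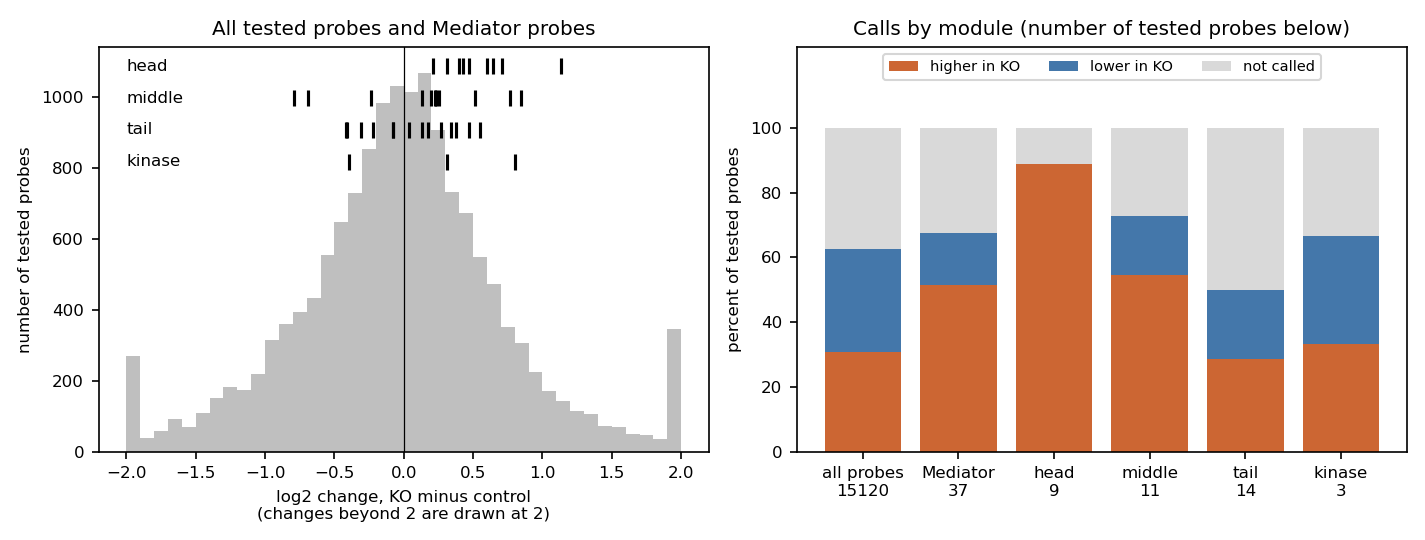
Left, the number of tested probes (grey bars) at each log2 change, KO minus control, with changes beyond 2 drawn at 2 and each Mediator probe as a tick in the row of its module; right, the percent of tested probes that were higher, lower or not called. All probes have 30.7% higher and 32.0% lower and Mediator 51.4% and 16.2%, and the head module has no lower probe.

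The head module, the part of the core that holds the general transcription machinery at the promoter, had the most uniform direction. Of its 12 probes for 7 genes, 9 probes for 6 genes were tested. Of the 9, 8 probes for 5 genes (88.9% of probes, beside 30.7% of all probes) were higher in KO and 0 lower, with a median change of 0.47. Med8, Med11 and Med22 each count with 2 probes. Med22 and Med11, which form a heterodimer in the head, were both higher at each of their 2 probes. The Med22 probe ILMN_3041056 read 6.91, 7.14, 6.46 and 7.03 in the controls and 8.06, 8.09, 7.90 and 8.02 in the KO animals. The KO mice were close together and well separated from all control mice. This was the largest change of a member, 1.13 ± 0.14 (2.19-fold, adjusted p = 6.73e-05), and it was 0.67 when no background was subtracted. The other Med22 probe, ILMN_3100456, read 8.41, 8.47, 8.15 and 8.56 in the controls and 9.07, 9.21, 9.10 and 9.06 in the KO animals, a change of 0.71 ± 0.10 (1.64-fold, adjusted p = 1.37e-04). Med11 probe ILMN_3000536 read 8.30, 8.09, 8.57 and 8.60 in the controls and 9.05, 9.18, 9.23 and 8.66 in the KO animals (0.64 ± 0.15, 1.56-fold, adjusted p = 0.00483). KO mouse 4 lay just above the highest control mouse and the other KO mice well above it. The second Med11 probe, ILMN_1257061, changed by 0.42 ± 0.08 (adjusted p = 0.00142).

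Med8, Med18 and Med20, which form a movable arm of the head, were higher as well. Med8 probe ILMN_2672208 read 9.59, 9.61, 9.74 and 9.78 in the controls and 10.38, 10.27, 10.20 and 10.27 in the KO animals, with no overlap (0.60 ± 0.08, 1.52-fold, adjusted p = 8.37e-05). Med8 probe ILMN_1222516 changed by 0.47 ± 0.08 (adjusted p = 7.27e-04). Med18, at the 1 of its 3 probes that was tested, changed by 0.40 ± 0.10 (adjusted p = 0.00698), and Med20, its partner in a heterodimer, by 0.31 ± 0.09 (adjusted p = 0.00977). These changes were smaller than those of Med22, and their KO mice still lay above all control mice. Without control mice 1 and 3 the adjusted p was 0.0651 for Med18 and 0.0540 for Med20. Med6, which contacts the polymerase and the middle module, read 9.89 to 10.23 in the controls and 10.02 to 10.42 in the KO animals and did not pass (0.21 ± 0.11, adjusted p = 0.114). Med17, the scaffold of the head, was not detected on any array, with values of 4.46 to 4.80 in control and 4.42 to 4.72 in KO.

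The middle module, which contains Med1 itself, split by subunit: of its 11 tested probes for 9 genes 6 were higher, 2 (both of Med1) lower and 3 not called, and the median was 0.23. Over all tested probes 30.7% were higher and 32.0% lower. Med10 read 8.55, 8.39, 8.76 and 8.85 in the controls and 9.60, 9.30, 9.66 and 9.38 in the KO animals, a change of 0.84 ± 0.12 (1.80-fold, adjusted p = 2.20e-04). Med19, a subunit at the edge of the middle module, read 7.32, 7.45, 7.78 and 7.26 in the controls and 8.31, 8.25, 8.18 and 8.15 in the KO animals, a change of 0.77 ± 0.12 (1.70-fold, adjusted p = 2.66e-04) that was 0.50 with no background subtracted. In both genes all KO mice lay above all control mice, although control mouse 3 had the highest Med19 value of its group. Med4, part of the middle module's scaffold, read 9.69, 9.39, 9.78 and 9.71 in the controls and 10.12, 10.08, 10.30 and 10.13 in the KO animals (0.51 ± 0.10, 1.43-fold, adjusted p = 0.00133). Med7, the partner of Med21 and Med31, changed by 0.26 ± 0.07 (adjusted p = 0.0106), and Med26, a docking site for elongation factors, by 0.23 ± 0.07 (adjusted p = 0.0158). Both changes were small, and both lost the call without control mice 1 and 3 (adjusted p = 0.105 and 0.0533). Med31 read 7.91, 8.0, 7.88 and 7.72 in the controls and 8.19, 7.94, 8.17 and 8.17 in the KO animals (0.24 ± 0.09, adjusted p = 0.0408). KO mouse 2 lay below control mouse 2, and Med31 lost its call under 10 of 17 alternative settings. Med21 (0.13 ± 0.07, adjusted p = 0.105) and Med9 (0.19 ± 0.14, adjusted p = 0.267) did not pass, although for Med21 the KO mice, at 10.07 to 10.12, lay above the control mice, at 9.89 to 10.05.

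**Figure D3:**
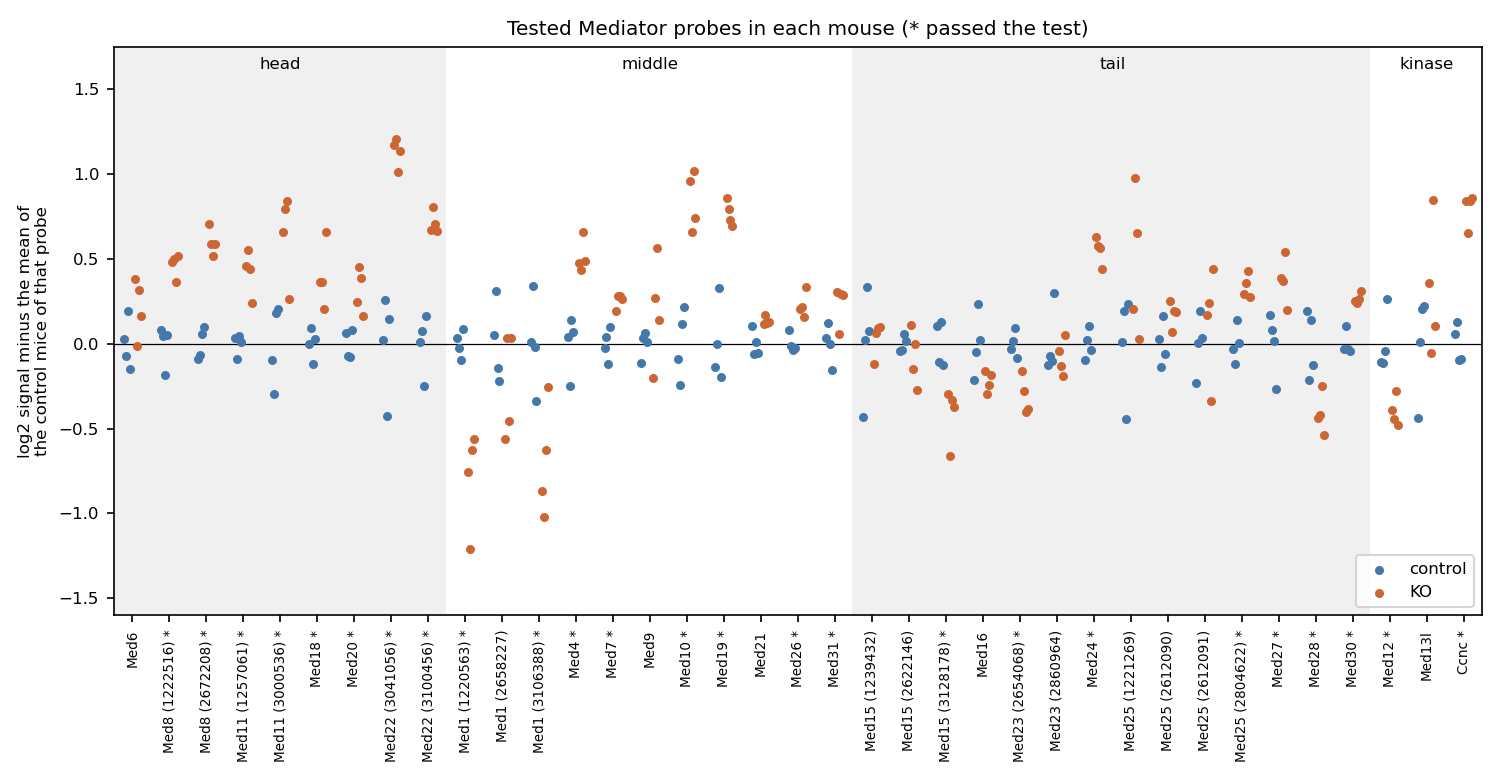
Log2 signal of each tested Mediator probe in each mouse, minus the mean of the 4 control mice for that probe (vertical axis), with probes grouped by module and called probes starred. The 9 head probes have their KO points mostly above 0, with all 4 KO mice above all control mice at each of the 8 called ones, whereas Med12, Med16, Med28, the called probes of Med1 and single probes of Med15 and Med23 have all 4 KO points below 0.

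The tail module, which activators bind, was mixed. Of 14 tested probes for 8 genes 4 (28.6%) were higher, 3 (21.4%) lower and 7 not called, and the median was 0.08. The share higher was near the 30.7% of all tested probes, of which 32.0% were lower. Med24, a tail subunit that is bound to the core together with Med16 and Med23, was the most changed. It read 10.44, 10.56, 10.64 and 10.50 in the controls and 11.16, 11.11, 11.10 and 10.97 in the KO animals, without overlap (0.55 ± 0.07, 1.47-fold, adjusted p = 1.39e-04). Neither of its neighbours was called higher: Med16 read 9.28, 9.45, 9.73 and 9.52 in the controls and 9.33, 9.20, 9.25 and 9.31 in the KO animals (−0.22 ± 0.10, adjusted p = 0.0749), and Med23, a target of ETS and E1A activators, was lower at ILMN_2654068 (9.68, 9.73, 9.81 and 9.63 in control and 9.55, 9.43, 9.31 and 9.32 in KO). That Med23 change was −0.31 ± 0.08, or 80.8% of control (adjusted p = 0.00754), while at the second Med23 probe, ILMN_2860964, it was −0.08 ± 0.11 (adjusted p = 0.560). Med25, the subunit bound by the viral activator VP16, was higher at 1 of 4 tested probes, ILMN_2804622, which read 10.91, 10.83, 11.08 and 10.95 in the controls and 11.24, 11.30, 11.37 and 11.22 in the KO animals (0.34 ± 0.08, 1.27-fold, adjusted p = 0.00370). Its other probes changed by 0.47 ± 0.22, 0.18 ± 0.08 and 0.13 ± 0.16 and did not pass.

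Med15, which binds SREBP and SMAD factors, was lower at 1 of 3 tested probes. ILMN_3128178 read 10.37, 10.16, 10.39 and 10.14 in the controls and 9.97, 9.60, 9.93 and 9.89 in the KO animals, a change of −0.42 ± 0.10 (75.0% of control, adjusted p = 0.00612). All KO mice lay below all control mice at this probe. Of the subunits found in animals and not in yeast, Med28 read 11.07, 10.67, 11.02 and 10.75 in the controls and 10.44, 10.46, 10.63 and 10.34 in the KO animals, a change of −0.41 ± 0.11 (75.2% of control, adjusted p = 0.00864). Control mice 1 and 3 had its highest values. Without both, its change was −0.24 (adjusted p = 0.0913), that of Med15 −0.30 (adjusted p = 0.0751) and that of Med23 −0.27 (adjusted p = 0.0607). Med27 (0.37 ± 0.11, adjusted p = 0.0143) and Med30 (0.27 ± 0.07, adjusted p = 0.00537) were higher, Med30 with an adjusted p of 0.0550 without control mice 1 and 3. Med29 was detected on 1 KO array and was not tested. Med27 to Med30 have also been placed with the head; counted there, the head had 10 higher and 1 lower of 12 tested probes and the tail 2 higher and 2 lower of 11.

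In the kinase module 3 of 7 probes could be tested, and they moved in different directions. Ccnc encodes cyclin C, the partner that activates Cdk8. It read 8.40, 8.47, 8.25 and 8.25 in the controls and 9.19, 8.995, 9.19 and 9.21 in the KO animals. The groups were far apart relative to their spread, and the change of 0.80 ± 0.08 (1.74-fold, adjusted p = 2.35e-05) had the smallest adjusted p of all members. Med12, which joins cyclin C and Cdk8 into an active kinase, was lower instead. It read 9.48, 9.47, 9.54 and 9.85 in the controls and 9.19, 9.14, 9.31 and 9.10 in the KO animals (−0.40 ± 0.10, 75.9% of control, adjusted p = 0.00581), again without overlap. Med13l, a paralog of the subunit that links the kinase to the core, read 5.64, 6.08, 6.28 and 6.30 in the controls and 6.43, 6.02, 6.92 and 6.18 in the KO animals and did not pass (0.31 ± 0.21, adjusted p = 0.217). The kinase itself was not measurable: both Cdk8 probes were not detected on any array, and Med13 was detected on 1 control array. Cdk19, the paralog that can take the place of Cdk8, read 10.15 to 10.42 in the controls and 10.24 to 10.38 in the KO animals, with a change of −0.01 ± 0.08 (adjusted p = 0.955). The 10 member probes that were not tested were each detected on 2 arrays or fewer; Med14 and Med12l had no probe under these names and were not analysed here.

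Among 7 genes with several tested probes (18 probes), the probes of Med8, Med11 and Med22 were all higher, whereas Med1, Med15, Med23 and Med25 each had called and uncalled probes. The Med15 probe that was lower is annotated to the transcript NM_001040683. The other 2 Med15 probes, annotated to NM_033609, read 9.62 to 9.72 and 6.53 to 7.29 in the controls and 9.39 to 9.77 and 6.84 to 7.06 in the KO animals, and did not pass (−0.08 ± 0.09, adjusted p = 0.477, and 0.03 ± 0.15, adjusted p = 0.851). The change of the lower Med15 probe differed from these by 0.34 (p = 0.0571) and 0.45 (p = 0.0857) in exact two-sided permutation tests over the 70 assignments of the 8 mice. The 2 Med22 probes, annotated to NM_011513 and NM_001033908, differed by 0.42 in their change (exact permutation p = 0.0286, the smallest these mice allow), and by 0.11 when no background was subtracted. Of 16 such pairs 2 had an unadjusted p of 0.0286, the Med22 pair and the Med1 probes ILMN_2658227 and ILMN_3106388, and 0 passed after Benjamini-Hochberg adjustment over the 16 (adjusted p = 0.229 for both). With 8 mice and 16 pairs, a single pair at the smallest p cannot pass this adjustment, so the adjusted values do not say whether probes of a gene differed.

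**Figure D4:**
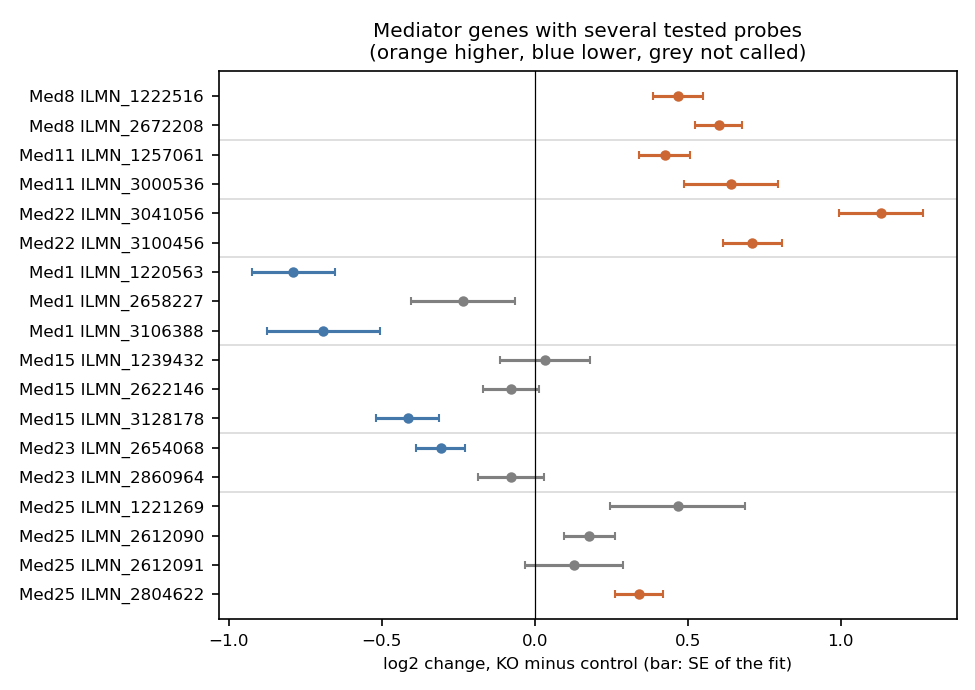
Log2 change, KO minus control (horizontal axis), with the SE of the fit as bars, for the 18 tested probes of the 7 Mediator genes with several. Both probes of Med8, Med11 and Med22 lie between 0.42 and 1.13, while at Med1, Med15 and Med23 the called probes are lower and each has a probe that did not pass.

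The machinery that Mediator works with was read from a list of general transcription factors, elongation factors, cohesin and chromatin partners. Of 47 listed genes 40 were on the array, and of 55 tested probes for 34 genes 24 (43.6%, beside 30.7% of all tested probes) were higher and 8 (14.5%, beside 32.0%) lower, with 23 not called and a median of 0.18. The Mllt1 probe ILMN_2707666, counted as higher, was detected on 0 control and 4 KO arrays and entered the test through KO alone. A stricter filter asked for a detection p below 0.01 on all 4 arrays of a group. It gave 22 probes higher and 8 lower, beside 4472 and 4540 of all 13085 probes it kept. Such a filter can still be met through 1 group alone. Gtf2f2, a subunit of the initiation factor TFIIF, read 10.44, 10.56, 10.56 and 10.46 in the controls and 11.43, 11.42, 11.44 and 11.47 in the KO animals (0.93 ± 0.06, adjusted p = 1.49e-06). Mllt3, a reader of acetylated histones in the super elongation complex, was the most lowered: its probe ILMN_1256890 read 8.51, 8.53, 8.80 and 8.92 in the controls and 6.49, 6.65, 7.005 and 6.41 in the KO animals (−2.05 ± 0.15, adjusted p = 1.78e-06). The other tested Mllt3 probes changed by −1.76 ± 0.14 (ILMN_1252757, adjusted p = 4.45e-06) and by −0.40 ± 0.13 (ILMN_3035795, adjusted p = 0.0241). At the latter the groups overlapped. Kat2a, the acetyltransferase of the SAGA complex, changed by 0.65 ± 0.07 (adjusted p = 3.11e-05). All 4 probes of Polr2d, a polymerase II subunit, were higher, by 0.42 to 0.67. The 6 genes with lower probes were Mllt3, Ell3, Aff1, Aff4, Ehmt2 and Stag1. Ehmt2 was lower at ILMN_3147724 (−0.31 ± 0.08, adjusted p = 0.00795), while its other tested probes did not pass.

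The receptors and cofactors that Med1 contacts were close to the background in both directions. Of 31 listed genes 29 were on the array, and of 28 tested probes for 20 genes 8 (28.6%) were higher and 9 (32.1%) lower, with a median of −0.02. The Ncoa2 probe ILMN_1259910, counted as higher, was detected on 0 control and 4 KO arrays and entered the test through KO alone. With the stricter filter 7 probes were higher and 9 lower, beside 4472 and 4540 of all 13085 probes it kept. Vdr, the vitamin D receptor and a Med1 partner in keratinocytes, was higher at all 3 tested probes; ILMN_2864062 read 8.32, 8.42, 8.45 and 8.55 in the controls and 9.58, 9.34, 9.43 and 9.58 in the KO animals (1.05 ± 0.09, adjusted p = 4.32e-06). The other genes with higher probes were Pparg, Ncoa2 and Gata3. Esr1, the estrogen receptor, read 8.74, 9.05, 8.72 and 8.64 in the controls and 7.32, 7.09, 7.12 and 7.33 in the KO animals (−1.57 ± 0.11, adjusted p = 1.24e-06), and Gata2, a zinc finger factor that binds Med1, changed by −1.53 ± 0.13 (adjusted p = 7.46e-06). The other genes with lower probes were Nr1h3 (−1.14), Ppargc1b (−1.21), Ppargc1a (−0.91), Thra (−0.99), Rora (−0.67) and Rarb (−0.71 and −0.35 at its 2 probes). Rxra, the shared partner of Vdr and other receptors, did not pass (−0.09 ± 0.08, adjusted p = 0.371).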

How the data were processed

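RNA of whole back skin from 8 mice was hybridised to Illumina bead arrays, 1 mouse an array. For every probe the authors deposited a linear intensity, the mean over its beads, with no background subtraction or scaling, and, per the file headers, a detection p-value for it (GenomeStudio 2011.1 in the submitters' processing notes). A second deposited table holds normalized intensities, used here only as an alternative, with values raised to a floor of 16 before log2; per the study's methods values were normalized in that software, by a method not given in the sources used here.

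Raw signals went through neqc (limma 3.58.1, R 4.3.3, with background from the detection p-values, offset 16, quantile normalization, log2). The offset compresses changes of dim probes relative to subtraction without an offset. Relative to no background correction, the changes of called members were larger after neqc. Probes with a detection p below 0.05 on at least 4 of 8 arrays were tested, 15120 in all. Genotype was fitted with lmFit and eBayes, and p-values were adjusted by Benjamini-Hochberg over all 15120. Changes are KO minus control with the SE of the fit. The number of arrays, 4 a group, limits the precision. Levels were not compared between probes.

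Probes were named through the platform annotation, in which 23978 probes had 1 symbol and 1719 none; symbols updated through RefSeq gave the same 47 members. The members and gene lists were chosen with earlier results of these data known. Values by mouse are given for every tested Med1 probe, with ranges for the undetected one. They are also given for called members with an absolute log2 change of at least 0.5, for the 2 probes of smallest adjusted p in each module, and for others as a description. Of other lists, the 3 genes of smallest adjusted p were named, and further genes were named after their values were seen. Alternatives changed the background correction, normalization, filter, variance model, test, replicate block and mice.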

Additional observations from a re-analysis of the deposited data

Results flagged for a closer look

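In 74 groups of 4 mice, 37 tested probes in each genotype, 7 had a mouse whose log2 signal lay far from the other 3 relative to the range of the group (Dixon's criterion). By chance about 1 group in 20 is marked in this way. The control mice were marked for Med8 probe ILMN_1222516, where control 3 read 9.66 and the nearest mouse 9.89, for Med30, where control 2 read 10.75 and the nearest 10.62, and for Med23 probe ILMN_2860964, where control 4 read 8.33 and the nearest 7.96. The KO mice were marked for Med7 probe ILMN_1225666, where KO 1 read 10.05 and the nearest 10.13, and for Med15 probe ILMN_1239432, where KO 1 read 6.84 and the nearest 7.02. KO 2 was apart for Med31, at 7.94 with the nearest at 8.17, and for cyclin C (Ccnc probe ILMN_2725232), at 8.995 with the nearest at 9.19. At the Ccnc and Med7 probes the KO mouse that stood apart still lay above all control mice, and at Med31 it did not.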

How the results depend on the processing

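No called member changed direction under any alternative. The median change of the tested members was 0.19 with no background correction and 0.19 with no detection filter, and ran from 0.25 to 0.28 when each mouse was left out in turn, with 18 to 20 members higher and 6 to 7 lower. In those same settings 48.6% to 48.8% of the calls over all tested probes were higher. Without control mice 1 and 3 14 members were higher and the count of lower members fell to 2 (4031 and 4292 of all tested probes), and the Med1 probe ILMN_3106388 changed by −0.70 (adjusted p = 0.0510). Of 25 called members 15 kept their call under all 17 alternatives with adjusted p-values; 9 lost it only without control mice 1 and 3, a setting with fewer mice, and Med31 under 10 of them. Of the uncalled members 6 gained a call at least once, 1 of them without control mice 1 and 3. Between mice with the same replicate number in their titles, deviations from the group mean were nearly uncorrelated (correlations between −0.107 and 0.0587). Such values cannot tell whether the numbers pair the mice. With the number as a replicate block 18 members were higher and 6 lower (4466 and 4726 of all tested probes). An unpaired t-test on the neqc values gave 20 higher and 6 lower at an unadjusted 0.05 (4747 and 4889 of all tested probes). After Benjamini-Hochberg adjustment it gave the same member counts (4418 and 4584 of all tested probes). The study's methods name such a test for their statistics in general and not for the arrays. Signal over background limits the dim probes: 10 members were not tested. With no background correction the change of every called member was smaller. Among them were the dim probes Med1 ILMN_3106388, Med22 ILMN_3041056 and Med19, and also the brighter Med1 ILMN_1220563 (−0.60) and Ccnc (0.62).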
